A study of Mus musculus with 6 samples.

Results

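The 10 genes described here are the glutathione transferases and associated detoxification enzymes Gsta1, Gsta2, Gsta4, Gm3776, Gstm1, Gstm3, Gstp1, Mgst1, Akr1b8 and Cbr1, taken by symbol from the 32285 features counted in a single-cell RNA-seq study of mouse jejunal epithelium. Of the 10 genes, 7 encode cytosolic glutathione transferases or, for Gm3776, a near-identical copy of one, Mgst1 encodes a membrane-bound transferase of another protein family, and Akr1b8 and Cbr1 encode carbonyl-reducing enzymes that are not transferases. The members were selected with their measured levels in these libraries known, including their differences between diets and between operations, so the values below are a description and no test is attached to them. All mice were wildtype male C57BL/6J animals of about 30 weeks that had been fasted overnight. One group was fed a low-fat diet (LFD) and had a sham operation, one was fed a high-fat diet (HFD) and had a sham operation, and one was fed HFD and had a vertical sleeve gastrectomy (VSG), an operation that removes most of the stomach. Diets were given for 16 weeks before surgery, and tissue was taken 5 weeks after it. Cells were pooled within a group, from 3 mice each for LFD sham and HFD sham and from 2 mice for HFD VSG, and each pool gave 1 crypt-labelled and 1 villus-labelled library, so there are 6 libraries and no replicates.

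Glutathione transferases join the tripeptide glutathione to electrophiles such as lipid aldehydes, plant compounds and drugs, and the conjugates leave the cell through export pumps. The alpha, mu and pi classes are soluble dimers that differ in substrate range, whereas microsomal transferases sit in membranes and can also reduce lipid peroxides. In the small intestine these enzymes form part of the first-pass barrier to ingested compounds, and many of their genes are known targets of the transcription factor Nrf2 (Nfe2l2). Aldo-keto and carbonyl reductases act on the same reactive carbonyls by reducing them to alcohols.

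A total of 24132 cells passed the filters, 3032 to 4724 per library, and formed 18 clusters. Of these cells, 13024 in 7 clusters were called enterocyte-like from marker genes that include no member, with 1599 to 3229 cells and 23772050 to 58493917 unique molecular identifiers (UMIs, counted RNA molecules) per library. Levels are given as counts per 1000000 (CPM) of the UMIs summed over a cell class, a scale on which 3′-end counts of different genes can be set side by side without a correction for length. Log2 ratios of CPM carry exact 95% Poisson intervals, which cover counting error only and not the differences between mice, and a ratio beyond 0.5 in either direction was counted. The marker content went against the fraction labels. Stem-like cells made up 1.07%, 1.48% and 2.77% of the crypt-labelled LFD sham, HFD sham and HFD VSG libraries but 5.44%, 2.57% and 9.47% of their villus-labelled counterparts, so libraries are named here by label and not by position. Median UMIs per enterocyte-like cell were 13613 to 17654 in 5 libraries and 34726 in the villus-labelled HFD VSG library. Genes that mark damaged droplets summed to 35906 to 59404 CPM in enterocyte-like cells of the 4 sham libraries and to 8898 and 14163 CPM in the villus- and crypt-labelled HFD VSG libraries. The 12 immune markers summed to 0.699 to 49.9 CPM in these cells, 6 macrophage markers to 0.293 to 0.799 CPM, and 12 Paneth markers to 424 to 3069.5 CPM. Those of B and plasma cells (6 genes) summed to 67.7 CPM in the villus-labelled LFD sham library and 0.832 CPM or less in the others, and 5 red blood cell markers to 54.2 CPM in the villus-labelled HFD VSG library and 0.799 CPM or less in the others. The part of depth, other cell types' RNA and droplet damage in the differences between groups was not tested.

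The alpha-class members lie in 1 stretch of chromosome 9 (GRCm38, GENCODE vM21). Gsta4 occupies chr9:78182774-78209349 on the plus strand, Gsta1 chr9:78230656-78242684 on the plus strand, Gm3776 chr9:78257129-78269166 on the plus strand and Gsta2 chr9:78331018-78355788 on the minus strand. The mu-class pair Gstm1 (chr3:108012255-108017973) and Gstm3 (chr3:107963696-107969283) also neighbour each other, both on the minus strand. Gstp1 lies at chr19:4035407-4037985 on the minus strand, Mgst1 at chr6:138140316-138156755 on the plus strand, Akr1b8 at chr6:34354119-34368463 on the plus strand and Cbr1 at chr16:93605853-93610505 on the plus strand. Transcripts of Gsta1 and Gm3776 were identical at 870 of 874 aligned bases, those of Gsta1 and Gsta2 at 846 of 870, and those of Gsta1 and Gsta4 at 543 of 860. The copies also share the sequence in front of the gene. The stretches below, from RefSeq (GRCm38.p6), are shown because they show how closely Gm3776 follows Gsta1 and how Gsta2 departs from both. The 125 bases were the same in Gsta1 (chr9:78230506-78230630, plus strand, upstream of the annotated gene) and Gm3776 (chr9:78256979-78257103, plus strand, upstream of the annotated gene), whereas the matching stretch of Gsta2 (chr9:78347187-78347311, minus strand, in front of its main annotated first exons and inside an intron of a longer gene model) differed at 21 positions, printed in capitals, for an identity of 83.2%.
Gsta1: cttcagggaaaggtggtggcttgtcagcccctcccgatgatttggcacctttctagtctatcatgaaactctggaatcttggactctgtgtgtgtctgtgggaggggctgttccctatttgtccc
Gm3776: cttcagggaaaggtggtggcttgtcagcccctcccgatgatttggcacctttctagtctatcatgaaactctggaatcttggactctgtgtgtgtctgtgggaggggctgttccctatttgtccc
Gsta2: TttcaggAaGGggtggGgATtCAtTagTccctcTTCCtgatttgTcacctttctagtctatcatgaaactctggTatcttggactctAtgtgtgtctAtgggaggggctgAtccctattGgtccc

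This identity limits what the counts can separate. Among the 90-base windows in the last 300 bases of the transcript, where 3′-end reads fall, 56.9% of those of Gsta1 were also found in Gm3776 and 57.3% of those of Gm3776 in Gsta1. The share was 17.5% for Gsta2, with Gm10639, and 100% for Gstp1, with Gstp2 and Gstp-ps. The other 6 members shared none of their 211 windows with another gene. Reads that match both copies are not counted for either in the usual setting of the counting program, so the levels of Gsta1, Gm3776 and Gstp1 are uncertain. Of the 10 members, 9 had an entry in the promoter table. In the 250 bases before the RefSeq start, the antioxidant response element core TGACNNNGC, on either strand, was found in Mgst1 as GCACGGTCA at position -56 and in no other member with an entry, against 10.2% of all 32851 promoters. The AP-1 site TGACTCA was found in Gstp1 at position -74, reading TGAGTCA on the strand of the gene, and in 4.46% of all promoters. The RefSeq starts of these genes lie inside the genes as GENCODE places them (windows chr6:138140277-138140576 for Mgst1 and chr19:4037863-4038162 for Gstp1), so that the Mgst1 match is within the gene span given above. These matches describe letters in a window and not sites of binding.

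Across cell classes most members were highest in the absorptive lineage. Gsta1, the alpha-class gene with the highest level, averaged 489 CPM in enterocyte-like cells (range 226 to 866 over 6 libraries) and 249.9 CPM in early progenitor-like cells (60.5 to 510.1), but 12.0 CPM in stem-like cells and 11.0 CPM in Paneth-like cells. By mean it was highest in enterocyte-like cells, but early progenitor-like cells were above them in the crypt-labelled LFD sham (326 against 318 CPM) and HFD sham libraries (510.1 against 475 CPM). Cbr1 was highest in enterocyte-like cells in 6 of 6 libraries, at 476 CPM (375 to 565). By mean over libraries, 8 of the 10 members were highest in enterocyte-like cells. The share of all genes that were highest there is not given, so this count describes the members only.

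For several members the order of neighbouring classes was not separated by the spread over libraries. Gsta4, which acts on the lipid peroxidation product 4-hydroxynonenal, averaged 78.3 CPM in enterocyte-like cells (32.8 to 135) and 72.6 CPM in goblet-like cells (27.7 to 109), and the order was reversed in 3 of 6 libraries. It was the alpha-class member that goblet-like cells held at a level close to that of enterocyte-like cells, since Gsta1 averaged 52.4 CPM there. Gm3776 was above its level in early progenitor-like cells in 3 of 6 libraries, and Gsta2 above its level in unnamed cluster 6 in 3 of 6. The ranges of Gstp1 in enterocyte-like (21.2 to 50.7 CPM) and early progenitor-like cells (17.7 to 41.8 CPM) also overlapped. Gstm1 was spread more evenly than Gstm3: in stem-like cells Gstm1 averaged 46.0 CPM against 95.7 CPM in enterocyte-like cells, and Gstm3 18.2 against 149.6 CPM.

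Mgst1 and Akr1b8 were highest in early progenitor-like cells. Mgst1, the microsomal transferase, averaged 919 CPM in early progenitor-like cells (801 to 1004), 596 CPM (335 to 1014) in enterocyte-like ones, and 334 and 509.5 CPM in the stem-like and cycling progenitor-like classes. It was above the enterocyte-like level in 5 of 6 libraries. Akr1b8, an aldo-keto reductase of lipid-derived aldehydes, averaged 43.1 CPM in early progenitor-like cells (35.2 to 55.1), then 9.99 CPM (1.68 to 28.3) in enterocyte-like and 24.9 CPM in cycling progenitor-like ones. Cluster by cluster, 9 of the 10 members were highest in an enterocyte-like cluster, the exception being Akr1b8. For Mgst1 the margin was small, and no enterocyte-like cluster was highest at a resolution of 0.8 or after subtraction of free RNA at the estimated fraction. The levels were 928 CPM in enterocyte-like cluster 4, led by Reg1 and Reg3a, against 919 CPM in the early progenitor-like cluster. The count of 9 of 10 likewise stands without the share of all genes that were highest in an enterocyte-like cluster.

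**Figure D1:**
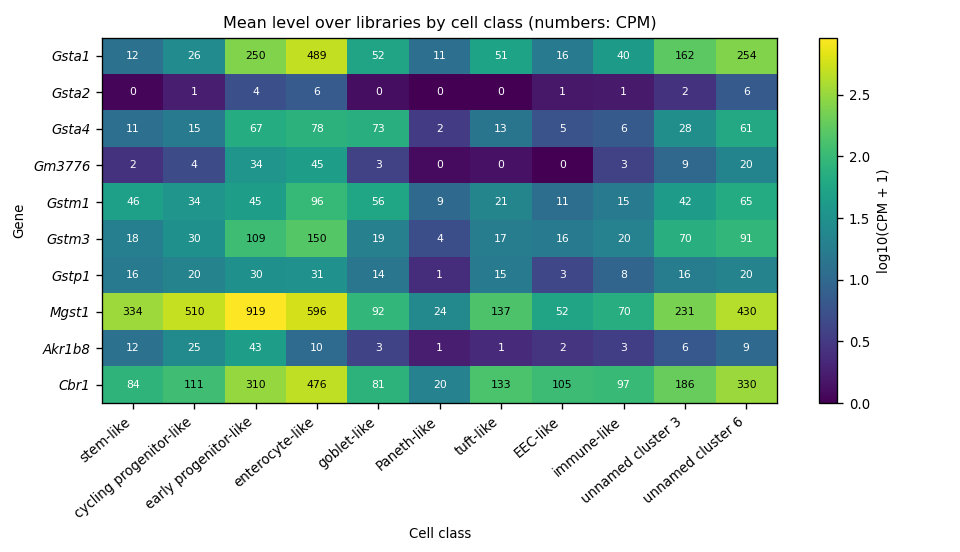
Mean CPM over libraries (colour, log10 of CPM + 1, with the CPM printed in each cell) of the 10 genes in rows and 9 named cell classes and 2 unnamed clusters in columns. Gsta1, Cbr1 and the mu-class genes are highest in enterocyte-like cells, while Mgst1 (919 CPM) and Akr1b8 are highest in early progenitor-like cells.

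Free RNA was present at levels that bear on the low classes. In droplets with fewer than 100 UMIs, Gsta1 ranged from 169 to 402 CPM, Mgst1 from 168 to 617 CPM and Cbr1 from 138 to 397 CPM over the 6 libraries. These are shares within free RNA and not its amount in cells. The free RNA fraction stated by the authors was higher in both HFD sham libraries than in the other libraries. The fraction estimated here from enterocyte markers in immune-like cells lacked this division. In the crypt-labelled LFD sham, HFD sham and HFD VSG libraries it was 0.26, 0.26 and 0.27. The villus-labelled values were 0.22, 0.17 and 0.089, of which the HFD sham value rests on 6 immune-like cells. In immune-like cells, which are not expected to make these enzymes at enterocyte levels, Gsta1 was at 19.3 to 78.3 CPM in the 5 libraries with 20 or more such cells. Gsta1 was within or under that range in stem-like (4.91 to 29.4 CPM), Paneth-like (2.07 to 29.1 CPM) and enteroendocrine-like cells (4.66 to 29.2 CPM). These levels are not read as expression. Median UMIs per cell were 3105 to 5788 in immune-like cells of the 5 libraries and 10184 to 29283.5 in stem-like cells. The immune-like range is thus not a like measure of free RNA for deeper cells, and whether these levels are background was not tested. Mgst1 in stem-like cells, at 297 to 411 CPM, was above its immune-like range of 38.5 to 144 CPM.

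In enterocyte-like cells the members together took 0.141% and 0.187% of UMIs in the crypt- and villus-labelled LFD sham libraries, 0.194% and 0.285% in the HFD sham libraries, and 0.140% and 0.240% in the HFD VSG libraries. In the following, the 6 levels of a gene are given in CPM in the order LFD sham crypt- and villus-labelled, HFD sham crypt- and villus-labelled, and HFD VSG crypt- and villus-labelled. Ratios of HFD sham over LFD sham and of HFD VSG over HFD sham share the HFD sham libraries, so an unusual HFD sham library would move both in opposite directions. In sums over a class, fewer cells that express a gene and less RNA per cell cannot be told apart.

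The largest differences were found among the alpha-class genes. Gsta1 was at 318, 511, 475, 866, 226 and 539 CPM. Both HFD sham libraries were above the LFD sham library of the same label, and both HFD VSG libraries were below the HFD sham library of the same label. The log2 ratio of HFD sham over LFD sham was 0.58 (0.54 to 0.61) in crypt-labelled and 0.76 (0.73 to 0.79) in villus-labelled libraries, and that of HFD VSG over HFD sham was -1.07 (-1.10 to -1.03) and -0.68 (-0.71 to -0.66). The villus-labelled ratio for surgery was -0.20, within the 0.5 limit, when the members were among the genes used for clustering. That clustering left unnamed a cluster of 3187 cells with 15 of 15 enterocyte markers, which was then outside the sums.

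Gm3776, the near copy, was at 15.6, 27.5, 52.7, 114, 14.1 and 48.5 CPM, with the 2 HFD sham libraries the highest in their label. Its ratio of HFD sham over LFD sham was 1.76 (1.62 to 1.90) in crypt-labelled and 2.05 (1.93 to 2.18) in villus-labelled libraries, larger than that of Gsta1, and UMIs of Gm3776 amounted to 4.90% and 5.38% of those of Gsta1 in LFD sham, 11.1% and 13.2% in HFD sham, and 6.24% and 8.99% in HFD VSG. Most of the 3′ windows are shared, and the pair was also summed. A sum does not restore reads that were counted for neither copy, and most UMIs of this sum are those of Gsta1. Summed, the log2 ratio of HFD sham over LFD sham was 0.66 (0.62 to 0.69) and 0.86 (0.83 to 0.89), and that of HFD VSG over HFD sham -1.13 (-1.17 to -1.10) and -0.74 (-0.76 to -0.72).

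Gsta2 was the lowest of the alpha class, at 1.79, 2.23, 9.31, 16.6, 2.44 and 3.69 CPM. The HFD sham libraries stood apart from the other 4. Its ratio was the furthest from 0 of the 10 members in each of the 4 comparisons, at 2.38 (1.98 to 2.80) and 2.89 (2.48 to 3.33) for HFD sham over LFD sham in crypt- and villus-labelled libraries, and -1.93 (-2.24 to -1.63) and -2.17 (-2.40 to -1.93) for HFD VSG over HFD sham. The LFD sham libraries rest on 65 and 53 UMIs, and in the villus-labelled one a single cell gave 9.43% of them. Over all cells but immune-like ones, Gm3776 was further from 0 than Gsta2 for surgery in crypt-labelled libraries, at -1.90 against -1.86.

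Gsta4 differed from the rest of the class in its diet ratios. It was at 61.9, 108, 67.4, 135, 32.8 and 64.5 CPM, so that LFD sham and HFD sham were close and HFD VSG lower than both. Its ratio of HFD sham over LFD sham was 0.12 (0.03 to 0.21) in crypt-labelled and 0.32 (0.25 to 0.39) in villus-labelled libraries, inside the 0.5 limit in both. For HFD VSG over HFD sham it was -1.04 (-1.13 to -0.95) and -1.07 (-1.13 to -1.01). Over all cells but immune-like ones the villus-labelled diet ratio of Gsta4 was past the limit, at 0.81 (0.75 to 0.88).

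**Figure D2:**
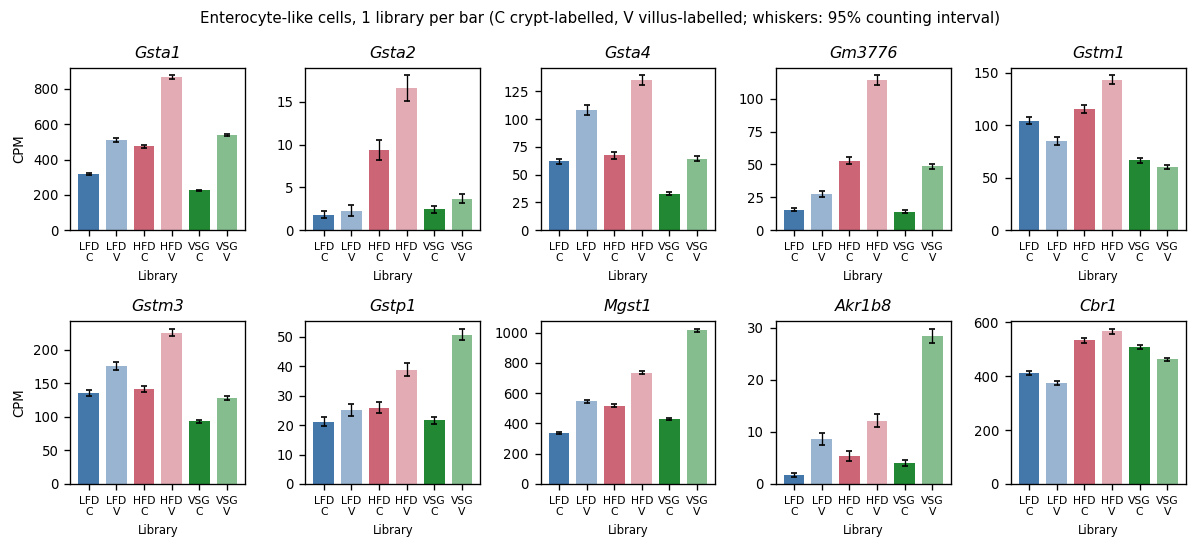
CPM in enterocyte-like cells for each gene and library (C crypt-labelled, V villus-labelled; whiskers are 95% counting intervals). The alpha-class genes are highest in the HFD sham library of each label, whereas Mgst1, Gstp1 and Akr1b8 reach their highest level in the villus-labelled HFD VSG library.

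The mu-class genes, whose products conjugate epoxides and other electrophiles, were lower after VSG in both fractions. Gstm1 was at 104, 85.2, 115, 143, 66.4 and 60.3 CPM, and the HFD VSG libraries were the lowest in each label. Its log2 ratio of HFD VSG over HFD sham was -0.80 (-0.86 to -0.73) in crypt-labelled and -1.25 (-1.31 to -1.18) in villus-labelled libraries. The diet ratio was 0.15 (0.08 to 0.22) in crypt-labelled libraries, within the 0.5 limit, and 0.75 (0.67 to 0.82) in villus-labelled ones. Gstm3 was at 135, 176, 141, 225, 93.3 and 128 CPM and followed the same order, with ratios of -0.59 (-0.65 to -0.53) and -0.81 (-0.86 to -0.77) for surgery. With the members among the clustering genes these were -0.496 and -0.46, and with at most 10% mitochondrial UMIs the crypt-labelled one was -0.25. Its diet ratio in crypt-labelled libraries, 0.06 (-0.01 to 0.12), had an interval that included 0, and in villus-labelled libraries it was 0.36 (0.30 to 0.41).

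Gstp1 and Mgst1 did not follow the alpha and mu classes after VSG. Gstp1, the pi-class transferase, was at 21.2, 25.2, 26.0, 38.7, 21.6 and 50.7 CPM. The villus-labelled HFD VSG library was the highest of the 6 and the crypt-labelled one was close to LFD sham. Its ratio of HFD VSG over HFD sham was -0.27 (-0.40 to -0.13) in crypt-labelled and 0.39 (0.29 to 0.49) in villus-labelled libraries, and -0.28 (-0.41 to -0.16) and 0.41 (0.32 to 0.50) when summed with Gstp2. This sum likewise does not restore reads counted for neither gene. Mgst1 was at a higher level, 335, 547, 518, 735, 430.1 and 1014 CPM, and was also highest in the villus-labelled HFD VSG library, while the crypt-labelled one lay between LFD sham and HFD sham. For Mgst1 the ratio was -0.27 (-0.30 to -0.24) and 0.47 (0.44 to 0.49) for surgery, and 0.63 (0.59 to 0.66) and 0.43 (0.39 to 0.46) for diet.

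The carbonyl-reducing enzymes differed from each other. Cbr1, which reduces quinones and prostaglandins, varied least, at 411, 375, 532, 565, 508 and 462 CPM. HFD sham was above LFD sham in both labels, by 0.37 (0.34 to 0.40) and 0.59 (0.56 to 0.63) on the log2 scale, and its ratios for surgery were -0.07 (-0.10 to -0.04) and -0.29 (-0.32 to -0.26). With at most 10% mitochondrial UMIs its villus-labelled diet ratio was 0.45. Akr1b8 was at 1.68, 8.58, 5.31, 12.1, 3.96 and 28.3 CPM and was higher in the villus-labelled library of every group. Its ratios were 1.66 (1.22 to 2.12) and 0.49 (0.24 to 0.75) for diet and -0.42 (-0.73 to -0.11) and 1.23 (1.06 to 1.40) for surgery, the last being the one value above 0.5 for any member after VSG.

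Counted over the 10 members, all of which had a mean of 50 or more UMIs in every comparison, 5 were above 0.5 for HFD sham over LFD sham in crypt-labelled libraries, where 5.12% of all 9550 genes at that depth were, and 0 were below -0.5 (6.20% of genes). In villus-labelled libraries 6 were above (4.42% of 9646 genes) and 0 below (8.32%). For HFD VSG over HFD sham, 0 members were above (6.01% of 10020 genes) and 6 below (2.39%) in crypt-labelled libraries. In villus-labelled libraries 1 was above (24.5% of 10340 genes) and 6 below (19.9%). Median log2 ratios of the members in the same order of comparisons were 0.47, 0.61, -0.69 and -0.75, beside medians of all genes of 0.01, -0.03, 0.10 and 0.01. After subtraction of the profile of cell-free droplets, at a stated or an estimated fraction, all 24 ratios beyond 0.5 kept their side of that limit. As the members were selected on these contrasts, the counts describe the selection and nothing is read from their distance to the background.

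**Figure D3:**
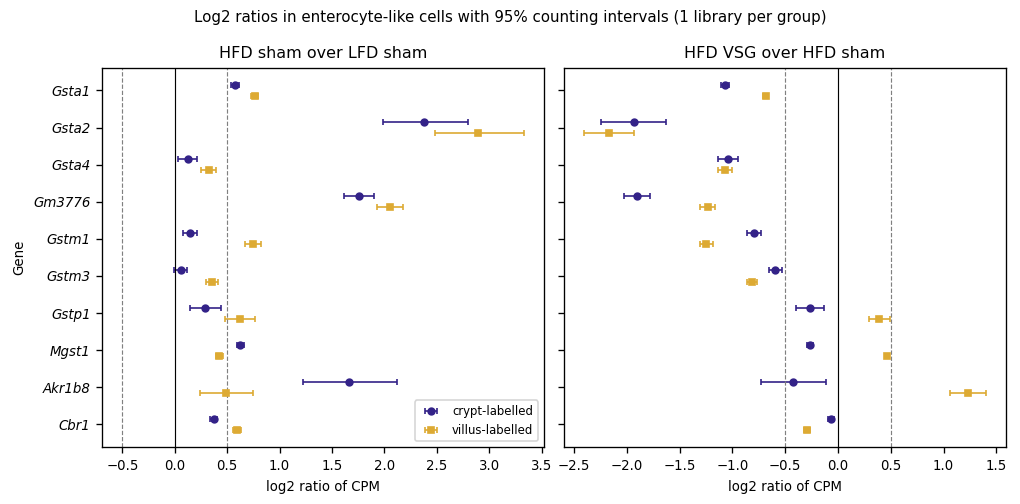
Log2 ratios of CPM in enterocyte-like cells with 95% counting intervals for HFD sham over LFD sham (left) and HFD VSG over HFD sham (right), circles for crypt-labelled and squares for villus-labelled libraries, dashed lines at 0.5 and -0.5. Gsta2 lies furthest from 0 in both panels and fractions, and Akr1b8, Mgst1 and Gstp1 take opposite signs in the 2 fractions after VSG.

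Set directly against LFD sham, the HFD VSG libraries showed which genes were near the LFD level. In crypt-labelled libraries the log2 ratio of HFD VSG over LFD sham was -0.14 for Gm3776, -0.49 for Gsta1, -0.54 for Gstm3, -0.65 for Gstm1 and -0.92 for Gsta4. Gsta1, Gsta4 and the mu-class genes were thus under the LFD level, and Gm3776 was the closest to it of the genes named. In villus-labelled libraries the values were 0.82, 0.08, -0.46, -0.50 and -0.75 for the same genes. Mgst1 (0.36 and 0.89), Akr1b8 (1.24 and 1.72) and Cbr1 (0.30 and 0.30) were above the LFD level in both fractions over all enterocyte-like cells, as was Gsta2 (0.45 and 0.73). Gstp1 was at 0.02 and 1.01.

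The libraries differed in which enterocytes they held, so levels were also read along a gradient of landmark genes. Enterocyte-like cells with 10 or more landmark UMIs (12945 of 13024) were ranked by the share of 10 villus tip landmarks, such as Ada and Nt5e, in the UMIs of these and 8 villus base landmarks, such as Lypd8 and Nlrp6, and cut into 5 ranges at limits common to all libraries. A range is a stretch of a score and not a cell type, and 2664 cells lay within 0.02 of a limit. The level was higher in range 1 than in range 5 in 6 of 6 libraries for 9 of the 10 members. For Gsta2 it was so in 5 of 6 with sums under 3 UMIs set to 3. The villus-labelled HFD VSG library had 0 UMIs of Gsta2 from 28 cells in range 5. The share of all genes with such a gradient is not given, so these counts describe the members only. From range 1 (base) to range 5 (tip), Gsta1 averaged 914, 685, 381, 129.8 and 25.6 CPM over libraries, and its log2 ratio of range 5 over range 1 was -5.68 to -4.79 in the 6 libraries. Gsta4 averaged 149 CPM in range 1 and 6.61 CPM in range 5, and Gstm3 240.3 and 15.6 CPM, with 1 and 0 UMIs in range 5 of the villus-labelled HFD VSG library. The gradients of Mgst1 (-4.08 to -2.85), Gstm1 (-3.21 to -2.09) and Gstp1 (-3.19 to -2.04) were less steep than that of Gsta1. Cbr1 had a gradient of -2.10 to -1.83 and stayed at 537, 553 and 524 CPM through the first 3 ranges before it was lower at the tip.

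**Figure D4:**
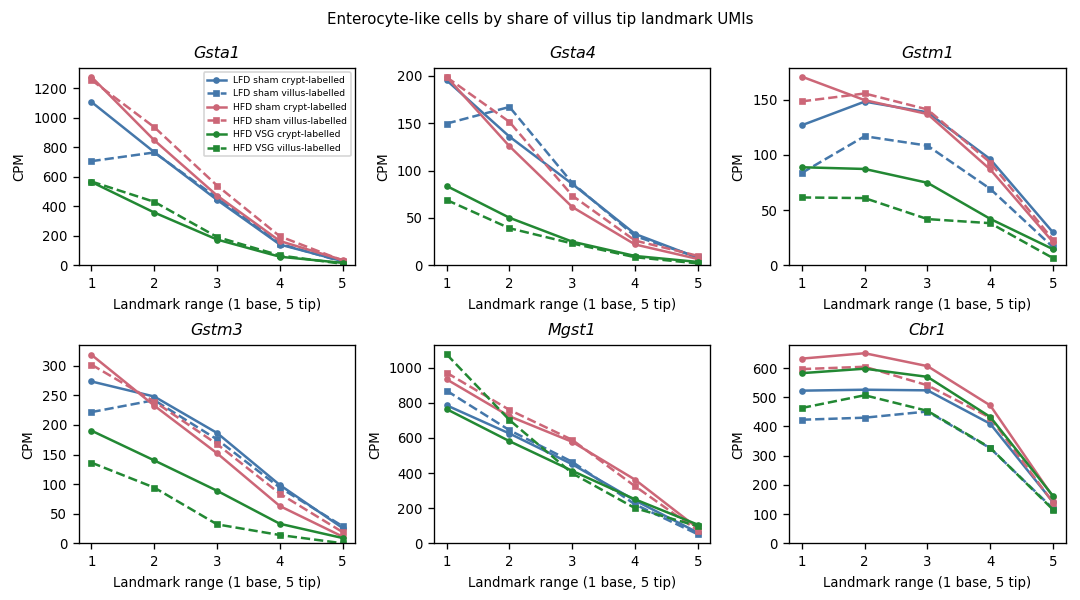
CPM of 6 members in enterocyte-like cells (y axis) by landmark range, 1 being the base and 5 the tip (x axis), with 1 line per library, solid for crypt-labelled and dashed for villus-labelled. Every gene is lower in range 5 than in range 1 in every library, and in ranges 1 to 4 the HFD VSG lines of Gsta1, Gsta4, Gstm1 and Gstm3 run below the HFD sham lines of the same label.

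Range 1 held 85.0% of the ranked cells of the villus-labelled HFD VSG library but 23.8% and 23.2% of the villus-labelled HFD sham and LFD sham ones, and 9.36%, 3.17% and 1.36% of the crypt-labelled HFD VSG, HFD sham and LFD sham ones. The landmarks themselves may differ between diets or operations, which cannot be told apart from position. Ratios were therefore set beside each other within range 2, the range whose smallest library held the most cells (129 to 833 cells per library).

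Within range 2 the surgery differences of the alpha and mu classes were of similar or larger size. Gsta1 was at 768, 766, 848, 937, 359 and 431 CPM in the 6 libraries, in the order given above, so that LFD sham and HFD sham were close and both HFD VSG libraries were the lowest. Gsta4, at 136, 167, 126, 151, 50.2 and 39.2 CPM, showed the same division of sham and VSG libraries. The log2 ratio of HFD VSG over HFD sham for Gsta1 was -1.24 (-1.29 to -1.19) in crypt-labelled and -1.12 (-1.19 to -1.05) in villus-labelled libraries. For Gsta4 it was -1.32 (-1.46 to -1.18) and -1.95 (-2.18 to -1.72). Gstm1 was at -0.78 (-0.89 to -0.66) and -1.35 (-1.55 to -1.16). The ratios of Gsta1 in ranges 1 to 4 ran from -1.48 to -1.17 in crypt-labelled and from -1.54 to -1.12 in villus-labelled libraries, so the difference did not depend on 1 range. Mgst1 and Gstp1 had the same sign in both fractions in range 2 but opposite signs in range 1, which held most cells of the villus-labelled HFD VSG library. Mgst1 in range 1 was at -0.29 (-0.39 to -0.19) in crypt-labelled and 0.15 (0.11 to 0.18) in villus-labelled libraries, and Gstp1 at -0.53 (-0.97 to -0.07) and 0.23 (0.07 to 0.39). In range 2 Mgst1 was at -0.31 (-0.36 to -0.27) and -0.11 (-0.17 to -0.05), and Gstp1 at -0.19 (-0.42 to 0.05) and -0.19 (-0.46 to 0.07), with intervals that included 0 for Gstp1. The ratio of Akr1b8 in villus-labelled libraries changed from 1.23 over all enterocyte-like cells to -0.69 (-1.30 to -0.13) within range 2, where it rests on 31 and 146 UMIs. In range 1, with 1621 and 177 UMIs, it was 0.57 (0.34 to 0.80).

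The diet differences were smaller within range 2 for most members. HFD sham over LFD sham was 0.14 (0.08 to 0.20) in crypt-labelled and 0.29 (0.24 to 0.34) in villus-labelled libraries for Gsta1, and 0.21 (0.15 to 0.27) and 0.24 (0.18 to 0.29) for Mgst1. Gsta4 was at -0.11 (-0.26 to 0.03) and -0.14 (-0.26 to -0.03), and Gstm3 at -0.09 (-0.20 to 0.02) and -0.01 (-0.10 to 0.08). The rarer alpha-class genes kept large ratios: 1.41 (1.18 to 1.65) and 1.52 (1.33 to 1.72) for Gm3776, and 2.59 (1.86 to 3.41) and 2.82 (2.07 to 3.68) for Gsta2. Cbr1 was at 0.31 (0.24 to 0.38) and 0.49 (0.43 to 0.56), both within the 0.5 limit, unlike its villus-labelled ratio over all enterocyte-like cells.

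The comparison of HFD VSG with LFD sham also changed within range 2. Mgst1 was at -0.10 (-0.16 to -0.05) in crypt-labelled and 0.12 (0.06 to 0.19) in villus-labelled libraries, so that it was under the LFD level in the first. Akr1b8 in villus-labelled libraries was at -0.04 (-0.75 to 0.65), from 31 and 45 UMIs. Gsta1 was under the LFD level in both, at -1.10 (-1.16 to -1.04) and -0.83 (-0.91 to -0.75), as were Gsta4 (-1.43 and -2.09) and Gm3776 (-0.86 and -0.62). Cbr1 was above it in both, at 0.19 and 0.24. Gsta2 in HFD VSG was at 3.79 CPM against 3.40 CPM in LFD sham in crypt-labelled libraries. In villus-labelled ones it was at 2.13 against 2.52 CPM, from 9 and 15 UMIs. Gstp1 was at 27.9 against 32.8 CPM and at 37.3 against 30.7 CPM.

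By count within range 2, 3 of the 10 members were above 0.5 for diet in crypt-labelled libraries and 0 below -0.5, 2 of the 3 being among the 9 with a mean of 50 or more UMIs (5.36% of all genes above and 3.50% below). In villus-labelled libraries 3 were above and 0 below (5.59% and 4.90% of genes). For surgery 0 were above and 6 below in crypt-labelled libraries (4.54% and 2.91%), and 0 above and 7 below in villus-labelled libraries (6.31% and 13.2%). The members' median ratios were 0.18, 0.44, -0.75 and -1.23, beside medians of all genes of 0.03, -0.01, 0.05 and -0.06.

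**Figure D5:**
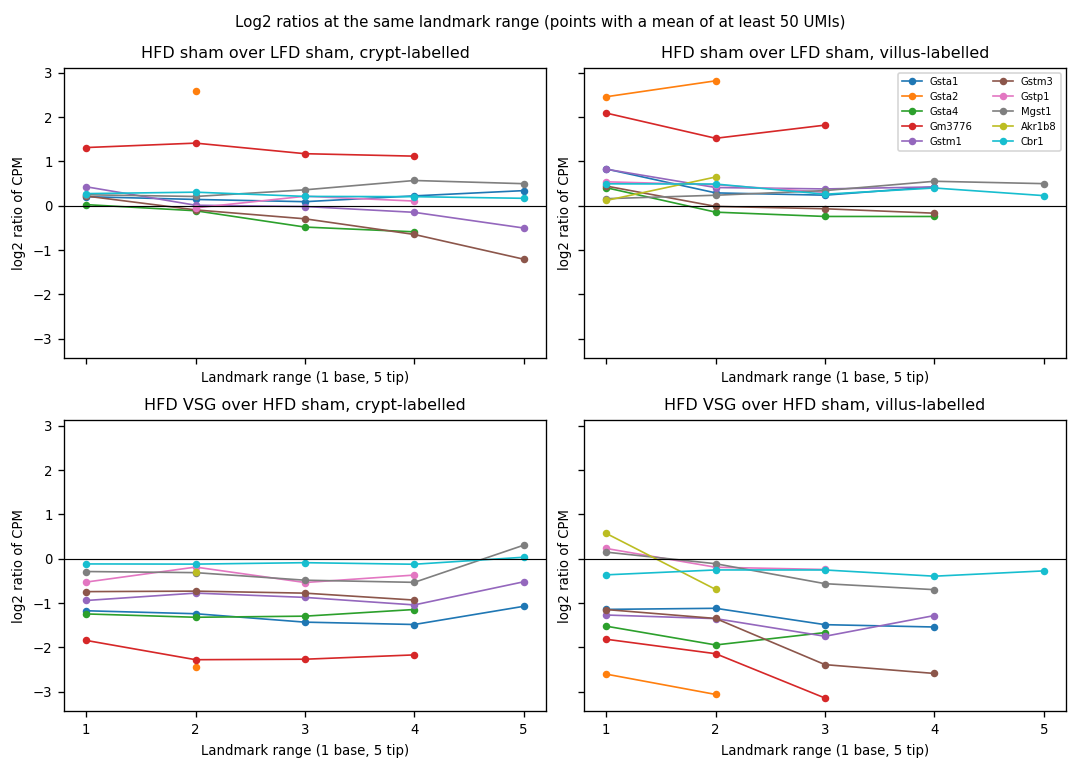
Log2 ratios of CPM (y axis) within each landmark range of enterocyte-like cells (x axis, 1 base to 5 tip), shown where the 2 libraries average at least 50 UMIs, with HFD sham over LFD sham in the upper and HFD VSG over HFD sham in the lower panels. Gsta1, Gsta2, Gsta4, Gm3776, Gstm1 and Gstm3 lie below 0 at every range shown after VSG, and Gsta2 and Gm3776 are more than 1 above 0 at every range shown for diet in both labels.

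The enterocyte-like clusters differed among themselves. The libraries drew on different clusters: tip-marked cluster 2 held 26.0% to 29.7% of enterocyte-like cells in crypt-labelled libraries and 19.4%, 10.5% and 3.93% in the villus-labelled LFD sham, HFD sham and HFD VSG libraries, and cluster 4 held 8.37% to 10.7% and 14.8%, 17.2% and 23.6%. Within cluster 4, where Gsta1 averaged 752 CPM, the ratio of HFD VSG over HFD sham was -1.01 in crypt-labelled and -1.53 in villus-labelled libraries. Cluster 0, led by Apoc2 and Cyp3a11, was less uniform. There the ratio of Gsta1 was -1.06 in crypt-labelled and -0.02 in villus-labelled libraries. For Gm3776 it was -2.00 and -0.65. In tip-marked cluster 2 the crypt-labelled ratios were -0.01 for Gsta1, 0.34 for Gstm1, 0.80 for Gstm3, 0.66 for Mgst1 and 0.78 for Cbr1, beside a median of all genes of 0.22, so that the mu-class genes had the opposite sign to that over all enterocyte-like cells. In villus-labelled libraries Gsta1 was at -0.18, Gstm1 at -1.30 and Gstm3 at -1.11 there. The diet ratio of Gm3776 was 1.47 or more in every comparison of clusters 0, 1 and 4. Unnamed clusters 3 and 6, which passed the limit for 15 of 15 enterocyte markers, are not in the enterocyte-like sums. For surgery the median ratio of members with 50 or more UMIs in cluster 3 was 0.72 in crypt-labelled and -0.0007 in villus-labelled libraries. The medians of all genes there were 0.50 and 0.41. In cluster 6 the members' medians were -0.20 and -0.36, beside 0.26 and -0.03 for all genes.

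Early progenitor-like cells, which lie before the enterocytes and were clustered apart from them, also had alpha- and mu-class levels that were highest in HFD sham and lower in HFD VSG, with values of their own. The difference from enterocyte-like cells was not tested. Each alpha- and mu-class gene kept the sign of its ratios in these cells after subtraction of free RNA at either fraction. Gsta1 was at 326, 102, 510.1, 359, 142 and 60.5 CPM, the HFD sham library being the highest in each label. Its log2 ratio was 0.65 (0.50 to 0.80) and 1.81 (1.65 to 1.97) for diet, and -1.85 (-1.99 to -1.71) and -2.57 (-2.67 to -2.46) for surgery. Gm3776 followed Gsta1, at 31.4, 11.5, 78.5, 61.7, 15.4 and 8.12 CPM, with surgery ratios of -2.35 (-2.75 to -1.95) and -2.93 (-3.21 to -2.65). Gsta4 was at 85.0, 37.9, 124, 90.2, 35.3 and 28.6 CPM, again with the HFD sham library highest in each label, and its surgery ratios were -1.81 (-2.09 to -1.53) and -1.66 (-1.84 to -1.47). The mu-class genes were also lower in both HFD VSG libraries than in the HFD sham library of the same label. Gstm1 had surgery ratios of -0.95 (-1.28 to -0.62) and -0.85 (-1.06 to -0.63). Gstm3 was at 115, 61.1, 207, 151, 81.6 and 36.9 CPM in these cells. Its ratios were 0.85 (0.60 to 1.10) and 1.30 (1.09 to 1.52) for diet and -1.34 (-1.54 to -1.14) and -2.03 (-2.18 to -1.88) for surgery. Mgst1, the most abundant member there, hardly varied, at 969, 801, 1004, 961, 878 and 902 CPM. The surgery ratio of Mgst1 was -0.19 (-0.27 to -0.12) in crypt-labelled and -0.09 (-0.14 to -0.04) in villus-labelled libraries. Akr1b8 was likewise similar in all libraries, at 36.5, 51.2, 35.2, 55.1, 35.3 and 45.4 CPM, with an interval for surgery that included 0 in crypt-labelled libraries, 0.00 (-0.40 to 0.42), and a ratio of -0.28 (-0.48 to -0.07) in villus-labelled ones. The median of all genes in this class was 0.10 in crypt-labelled and -0.21 in villus-labelled libraries for surgery.

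In goblet-like cells, which make mucus, Gsta4 was at 109, 27.7, 107, 74.3, 84.3 and 33.8 CPM. The villus-labelled LFD sham and HFD VSG libraries were the low ones. Its ratio was 1.42 (1.12 to 1.73) for diet and -1.13 (-1.39 to -0.88) for surgery in villus-labelled libraries. In crypt-labelled libraries the intervals included 0, at -0.03 (-0.43 to 0.36) and -0.34 (-0.74 to 0.07). Gsta1 was at 56.0, 19.8, 115, 63.7, 38.8 and 21.2 CPM in goblet-like cells, where HFD sham was again the highest in each label. These levels lie partly within the immune-like range of 19.3 to 78.3 CPM, and their differences depended on subtraction of free RNA. At the stated fractions the crypt-labelled LFD sham and HFD sham levels became 52.1 and 51.6 CPM, and in the villus-labelled HFD sham library no Gsta1 was left. At the estimated fractions none was left in the 3 villus-labelled libraries, although the fraction of the villus-labelled HFD sham library was estimated from 6 immune-like cells. The differences of Gsta1 in goblet-like cells are therefore not read as expression, whereas the villus-labelled ratios of Gsta4 at the stated fractions were 1.49 for diet and -1.19 for surgery, and at the estimated fractions 1.63 and -1.21. Gstm1 in these cells was at 55.4, 49.4, 57.4, 65.9, 43.8 and 66.2 CPM, and its surgery ratio in villus-labelled libraries was 0.01 (-0.22 to 0.24), unlike the -1.25 of enterocyte-like cells. The difference between the classes was not tested.

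Stem-like cells held few UMIs of most members. Mgst1 was at 301, 309, 315, 297, 371 and 411 CPM, and its ratio for diet was 0.07 (-0.25 to 0.38) in crypt-labelled and -0.06 (-0.22 to 0.10) in villus-labelled libraries, both with intervals that included 0. For surgery it was 0.23 (-0.01 to 0.49) and 0.47 (0.33 to 0.61), where the median of all genes in villus-labelled libraries was -0.27.

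Other genes of glutathione metabolism, taken from lists made with earlier results of these data known, were less uniform in enterocyte-like cells. Of 22 symbols listed for other glutathione transferases, 20 were among the feature symbols and 16 had a mean of 100 or more UMIs. For diet 5 of the 16 were above 0.5 in crypt-labelled and 6 in villus-labelled libraries and 0 below -0.5 in either. For surgery 0 were above and 3 below in crypt-labelled, and 3 above and 4 below in villus-labelled libraries. The shares of all genes are those given for the members, for diet 5.12% and 4.42% above and 6.20% and 8.32% below. For surgery they were 6.01% above and 2.39% below in crypt-labelled libraries. In villus-labelled ones they were 24.5% above and 19.9% below, to which 3 and 4 of 16 are near. Here and for the lists below, these shares cover genes with a mean of 50 or more UMIs in the compared libraries. That is a lower limit than the 100 used for the lists. Gsta3, an alpha-class gene, had the highest diet ratios (1.88 and 2.35) and the lowest surgery ratios (-1.18 and -0.95). Gstp3, by contrast, was at 0.21 and 1.15 for surgery, the highest of the list in both fractions.

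Among 11 measured genes of glutathione synthesis and recycling (of 13), 1 was above 0.5 for diet in crypt-labelled and 3 in villus-labelled libraries, with 0 below (of all genes, 5.12% and 4.42% above and 6.20% and 8.32% below). For surgery 1 was below -0.5 in crypt-labelled and 5 in villus-labelled libraries, with 0 above. Of all genes 2.39% and 19.9% were below and 6.01% and 24.5% above. Gclc, the catalytic subunit of the rate-limiting enzyme of glutathione synthesis, was at 76.4, 56.4, 77.9, 96.5, 43.9 and 44.9 CPM in the 6 libraries. Its surgery ratio was -0.83 in crypt-labelled and -1.10 in villus-labelled libraries. Its partner Gclm, the modifier subunit, was at 0.22 and -0.38.

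Of 14 genes of the Nrf2 system, 12 were measured, and 2 and 3 were above 0.5 for diet in crypt- and villus-labelled libraries with 0 below, beside the same 5.12% and 4.42% of all genes above and 6.20% and 8.32% below. For surgery 0 were beyond the limit in crypt-labelled libraries, where 6.01% of all genes were above and 2.39% below. In villus-labelled libraries 0 were above, against 24.5% of all genes, and 2 below, near the 19.9% of all genes. Nqo1, a quinone reductase and a classical Nrf2 target, had diet ratios of 0.56 and 0.65 and surgery ratios of -0.40 in crypt-labelled and 0.04 in villus-labelled libraries. Ugdh, which supplies the sugar for glucuronidation, had the lowest surgery ratios, -0.41 and -1.53. Of 6 genes for export of conjugates, 4 were measured, and 0 were beyond the limit for diet in either fraction, against 5.12% and 4.42% of all genes above it and 6.20% and 8.32% below it. For surgery 0 were beyond it in crypt-labelled libraries, against 6.01% of all genes above and 2.39% below. In villus-labelled libraries 0 were above it, against 24.5% of all genes. There 2 were below it, Abcc5 (-1.54) and the apical conjugate pump Abcc2 (-0.99), against 19.9% of all genes.

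Of 13 other carbonyl and aldo-keto reductases, 9 were measured. For diet 3 were above 0.5 and 1 below -0.5 in either fraction (the same shares of all genes apply), and for surgery 4 were below in either, with 0 above in crypt-labelled and 2 in villus-labelled libraries (of all genes, 2.39% and 19.9% below and 6.01% and 24.5% above). Akr1c19 was at 130.0, 121, 463, 561, 143 and 156 CPM in the 6 libraries. Its ratios were 1.83 and 2.21 for diet and -1.69 and -1.85 for surgery. Akr1c13 followed it, with 1.36 and 1.55 for diet and -1.43 and -0.99 for surgery. Akr1b3, a relative of Akr1b8, had the highest surgery ratio of the list in villus-labelled libraries, 2.04.

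The genes whose pattern was most like that of Mgst1, the member with the most UMIs, were sought over 51 sums of a cell class and a library with 50 or more cells. Among 6483 genes, Pearson's r of log2(CPM + 10) was among the highest for Cisd3 (0.959), a mitochondrial iron-sulfur protein, Cyc1 (0.958), a subunit of respiratory complex III, Acadvl (0.957), an enzyme of mitochondrial fatty acid oxidation, and Chchd10 (0.956), a mitochondrial intermembrane protein. Among the other members r with Mgst1 was 0.836 for Gstp1, 0.818 for Akr1b8 and 0.769 for Cbr1, and 0.565 for Gsta1 and 0.520 for Gsta4. These points share libraries and depth, and the correlations are descriptions across cell classes.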

How the data were processed

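Single-cell libraries made with a 10x Genomics 3′-end kit were sequenced from 6 pools of jejunal epithelial cells. The deposited count matrices hold whole UMIs per gene and barcode, which the authors made with Cell Ranger 6.0.0 against mm10, per the submitters' processing notes. Their later correction for free RNA is not in these counts. Of 59457 called barcodes, those with 750 or more genes and at most 20% mitochondrial UMIs were kept, after removal of the 4794 with the highest scores against simulated doublets (0.8% per 1000 called barcodes). Tested on simulated data, the scoring recovered only part of the doublets, so some remain. Cells were normalized with SCTransform (sctransform 0.4.2), integrated and clustered in Seurat 5.3.0 (2000 genes without the members, 30 components, resolution 0.4). A cluster was named when more than 50% of a class's markers, and at least 3, passed. A marker passed when its CPM in the cluster was at least 2 times the reference and 10% or more of the cells held it. The reference was the median over clusters, or for enterocyte markers the lowest quartile. Naming limits were set after the clusters were seen. Clusters 3 (2079 cells, led by damaged-droplet genes) and 6 (1642 shallow cells, with Paneth genes among its leading genes) stayed unnamed. Both passed the marker limit for 15 of 15 enterocyte markers, and their names were withheld by these rules.

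Called barcodes shared between 2 libraries numbered 17 to 43 per pair, and 1 to 12 among cells that passed. Raw counts were summed per class and library and divided by their total to give CPM, with no count model, since each group is 1 library of a kind and the spread between mice is unknown. Sums under 3 UMIs per library were set to 3 in ratios. The ratio and its interval were tested on simulated data. All 10 members are reported. Of each list of other pathway genes, those with a mean of 100 or more UMIs were counted and up to 3 with the highest and 3 with the lowest ratio could be named, together with the 5 genes most like the leading member, of which 1 is not reported here. The members and lists were chosen with earlier results of these data known. Alternatives covered free RNA, scaling, weighting and leading cells, cell filters, clustering and the cells included.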

Additional observations from a re-analysis of the deposited data

Results flagged for a closer look

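Of the 10 members, 3 had log2 ratios of HFD VSG over HFD sham in enterocyte-like cells with opposite signs in the 2 fractions, each with a counting interval that did not include 0. Mgst1 was at -0.27 in crypt-labelled and 0.47 in villus-labelled libraries, Gstp1 at -0.27 and 0.39, and Akr1b8 at -0.42 and 1.23. The difference between the fractions was not tested, as each rests on 1 library per group. Within landmark range 2 the 3 genes had the same sign in both fractions: -0.31 and -0.11 for Mgst1, -0.19 and -0.19 for Gstp1, and -0.29 and -0.69 for Akr1b8. Within range 1 the signs stayed opposite: -0.29 and 0.15 for Mgst1, -0.53 and 0.23 for Gstp1, and -0.84 and 0.57 for Akr1b8, whose crypt-labelled interval included 0. Range 1 at the base held 85.0% of ranked enterocyte-like cells in the villus-labelled HFD VSG library and 23.8% in the villus-labelled HFD sham library. With at most 10% mitochondrial UMIs the crypt-labelled ratio of Akr1b8 was 0.60 and that of Mgst1 0.20, and thus positive.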

How the results depend on the processing

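Of the 40 log2 ratios of the 10 members in enterocyte-like cells, 24 lay beyond 0.5 in either direction, and all 24 kept their side of that limit under subtraction of free RNA at a stated or an estimated fraction, scaling by median of ratios, exclusion of mitochondrial genes from the totals, sums without the cell richest in the gene, a minimum of 1500 genes, stricter doublet removal, a resolution of 0.8 and the use of all cells but immune-like ones. With the cells' own shares averaged 23 did, with at most 10% mitochondrial UMIs 22 and with the members among the clustering genes 21. After the data were seen, 3 alternatives were added, as was subtraction of free RNA in goblet-like and early progenitor-like cells. Without the 2 smallest enterocyte-like clusters 24 kept it, in landmark range 2 alone 17 and with equal weight for the 5 ranges 18. Members above 0.5 for HFD sham over LFD sham numbered 3 in place of 5 in crypt-labelled libraries, and 3 in place of 6 in villus-labelled ones, in range 2 and with equal weight. At a limit of 1 in place of 0.5 they numbered 3 and 2. Over all cells but immune-like ones the villus-labelled count was higher, with Gsta4 (0.81), Gstm3 (0.82) and Mgst1 (0.58) also above 0.5. For HFD VSG over HFD sham, members above 0.5 numbered 1 in place of 0 in crypt-labelled libraries at 10% mitochondrial UMIs, Akr1b8 at 0.60. In villus-labelled libraries they numbered 2 in place of 1 with averaged shares, and 0 in range 2 and with equal weight, where the ratio of Akr1b8 reversed from 1.23 to -0.69 and -0.022. Members highest in an enterocyte-like cluster numbered 5 in place of 9 with the members among the clustering genes, and 8 at a resolution of 0.8 and with free RNA at the estimated fraction. In the first of these settings Gm3776, Gstm3, Gstp1 and Mgst1 were highest in a cluster of 3187 cells with 15 of 15 enterocyte markers. That cluster was unnamed because markers of another class led it, so it was not counted as enterocyte-like. The cause of the other changes was not tested. Shares of all genes are given only for the 0.5 limit, over all enterocyte-like cells and in range 2. The other counts of members stand without such a share, and nothing is read from them about the members. No paired analysis was possible because each group is 1 library per fraction. The depth limits Gsta2 and Akr1b8 most, and replicate error is unknown for every value.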
